A study of Mus musculus with 60 samples.

Results

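The 4 globin genes Hba-a1, Hba-a2, Hbb-bs and Hbb-bt and the red cell enzyme gene Alas2 were followed through 60 prefrontal cortex RNA-seq libraries, as the genes of a deposited 18088-gene table whose Ensembl identifiers map to these symbols. All 5 were found and all 5 passed the filter on low values (a value of 10 or more in at least 5 libraries), which kept 17781 genes. The rule uses gene symbols alone and no measured value. The tissue was taken on postnatal day 25 from C57BL/6J mice of both sexes. As pups they had received fluoxetine, lithium or vehicle in maternal milk between days 3 and 24. Mice were heterozygous for the K228E allele of Tbr1 (Tbr1+/K228E, here HT) or wild type (WT). The 12 groups of 5 libraries each are HT and WT given fluoxetine, lithium or vehicle, in females and in males. Litters, dams and batches are not named in the labels. P-values therefore measure the spread between these libraries only, which may be partly technical.

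Haemoglobin of adult mice is a tetramer of alpha chains, from Hba-a1 and Hba-a2, and beta chains, which in C57BL/6 mice come from Hbb-bs and Hbb-bt. Alas2 encodes the red cell form of 5-aminolevulinate synthase, the first enzyme of haem synthesis. These transcripts are made in red cell precursors and persist in circulating reticulocytes, so in brain tissue they are commonly read as a measure of the blood left in the vessels. Globin transcripts have also been described in some neurons of rodents. In a bulk sample, fewer cells of a type and less RNA per cell cannot be told apart.

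The genes of each chain are near-identical copies, which limits what can be said of one copy alone. The coding sequences of Hba-a1 and Hba-a2 are both 426 bases long and differ at 1 base, and those of Hbb-bs and Hbb-bt are both 441 bases long and differ at 1 base, in the transcripts of the GENCODE M21 annotation of GRCm38. The windows around these bases are shown because they are the only coding places where a read can tell the copies apart. The capital is the differing base, C381T from Hba-a1 to Hba-a2 and C417T from Hbb-bs to Hbb-bt, counted from 1 at the first base of the start codon. All 4 windows lie in the last coding exon, at chr11:32284313-32284373 (plus strand) for Hba-a1, chr11:32297130-32297190 (plus strand) for Hba-a2, chr7:103826668-103826722 (minus strand) for Hbb-bs and chr7:103812659-103812713 (minus strand) for Hbb-bt.
Hba-a1: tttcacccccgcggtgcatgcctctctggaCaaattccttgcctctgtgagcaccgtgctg
Hba-a2: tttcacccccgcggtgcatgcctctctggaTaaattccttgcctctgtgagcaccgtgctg
Hbb-bs: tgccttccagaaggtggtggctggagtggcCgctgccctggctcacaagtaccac
Hbb-bt: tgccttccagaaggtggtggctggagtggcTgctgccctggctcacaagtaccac

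Over whole transcripts, 71.3% of the 31-base words of Hba-a1 occur in Hba-a2 and 66.9% of those of Hbb-bs occur in Hbb-bt. The split of reads between the copies is therefore uncertain, while the sum over the alpha pair and the sum over the beta pair are not affected by it. In the 4 pairs of an alpha and a beta transcript, 0 words of 31 bases were shared.

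The promoters of the members are shown as background. Whether they have a part in the common movement of these genes across libraries was not tested. The windows are the 215 bases before the annotated start, from RefSeq on GRCm38.p6, and all 5 members matched an entry. Capitals mark a TATA box (TATAAA, or with a last letter G instead, TATAAG), the CCAAT box, the CACCC box and GATAAG, a form of the GATA factor site. All were searched on both strands. Hba-a1 lies at chr11:32283457-32283671 (plus strand), Hbb-bs at chr7:103827929-103828143 (minus strand), Hbb-bt at chr7:103813924-103814138 (minus strand) and Alas2 at chrX:150547202-150547416 (plus strand). The Hba-a2 entry was identical to that of Hba-a1 over all 297 bases in which the pair of entries could be aligned, and is not repeated.
Hba-a1: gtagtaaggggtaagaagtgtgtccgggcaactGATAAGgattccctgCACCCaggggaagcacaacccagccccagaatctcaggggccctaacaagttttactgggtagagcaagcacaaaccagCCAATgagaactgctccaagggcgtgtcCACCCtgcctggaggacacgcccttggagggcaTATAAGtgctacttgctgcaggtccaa
Hbb-bs: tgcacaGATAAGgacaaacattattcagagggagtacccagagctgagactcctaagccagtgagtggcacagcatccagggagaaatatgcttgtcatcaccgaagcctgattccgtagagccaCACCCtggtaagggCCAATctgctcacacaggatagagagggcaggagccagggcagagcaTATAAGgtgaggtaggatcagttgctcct
Hbb-bt: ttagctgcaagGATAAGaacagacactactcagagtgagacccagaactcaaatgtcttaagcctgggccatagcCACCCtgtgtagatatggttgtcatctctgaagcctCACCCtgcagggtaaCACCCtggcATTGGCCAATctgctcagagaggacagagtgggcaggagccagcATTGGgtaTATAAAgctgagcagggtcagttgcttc
Alas2: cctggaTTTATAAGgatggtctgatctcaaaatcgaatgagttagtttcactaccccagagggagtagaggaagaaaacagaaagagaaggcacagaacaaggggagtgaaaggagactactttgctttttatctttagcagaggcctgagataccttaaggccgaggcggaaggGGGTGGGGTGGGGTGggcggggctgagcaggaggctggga

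The 4 globin promoters each held GATAAG, then a CACCC box, a CCAAT box and a TATA box in this order, the alpha genes with another CACCC between the last pair, and the TATA box began at -27 in Hba-a1, -30 in Hba-a2, -29 in Hbb-bs and -28 in Hbb-bt. Hbb-bt held CACCC at -140, -104 and -89, and CCAAT also on the opposite strand at -80 and -36. The copy at -80 lies next to the copy on the plus strand at -75, so that the capitals run together. Alas2 held 3 copies of CACCC on the opposite strand, at -40, -35 and -30, and overlapping TATAAA and TATAAG at -209 and -207. No GATAAG or CCAAT was found in the Alas2 entry, which says only that these letters are not in this window. Other forms of the GATA factor site were not searched, so a lack of such sites in Alas2 is not shown. Among all 32851 mouse promoter entries, which like those of the members run from 250 bases before to 50 after the start, 7.4% held GATAAG, 7.4% TATAAG, 13.6% TATAAA, 37.4% CCAAT and 57.5% CACCC. The beta promoters were 73.5% identical to each other.

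Library depth, recovered from the deposited values, was 23930164 to 36515331 reads (median 28721151). Tbr1, in which K228E changes 1 codon so that its level is no direct check of the genotype labels, ranged from 844.5 to 5241 normalised reads, and its group means ran from 3588 to 4934 in the 6 HT groups and from 2195 to 3738 in the 6 WT groups. All 8 cortical neuron markers were tested, so the labelled tissue had its markers. The 7 olfactory bulb markers summed to between 96.6 and 23854 normalised reads per library, so these markers differed widely between libraries. The 10 vehicle males differed from the treated males in many genes. Of all genes, 36.9% (lithium, HT), 41.4% (fluoxetine, HT), 48.2% (lithium, WT) and 58.0% (fluoxetine, WT) passed the test in the contrasts of treated with vehicle males. In females the shares were 0.0169% (lithium, HT), 0.0% (fluoxetine, HT), 0.00562% (lithium, WT) and 39.8% (fluoxetine, WT). Vehicle males were not tested directly against vehicle females. In males, treatment and whatever else set these 10 libraries apart cannot be told apart, so the sexes are described separately.

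Globin reads averaged 0.0289% ± 0.00925 of all normalised reads (SD, n = 60 libraries). The sum of the 4 globin genes ranged 4.09-fold, from 4198 to 17154 normalised reads. Per 1000 bases of the longest coding transcript, mean levels were 5101 normalised reads for Hba-a2, 4750 for Hbb-bs, 2967 for Hba-a1, 663 for Hbb-bt and 54 for Alas2. Hba-a2 thus stood above Hba-a1 and Hbb-bs above Hbb-bt, within the uncertainty of the copies. Across libraries the coefficient of variation was 33.2% for Hba-a1 and 34.2% for Hba-a2.

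From lowest to highest, the globin sum averaged 4881 ± 625 normalised reads in WT vehicle males, 6198 ± 755 in HT vehicle males, 6963 ± 1135 in WT fluoxetine females and 7219 ± 1365 in HT fluoxetine females (SD, n = 5 each). It then averaged 8058 ± 1310 in WT fluoxetine males, 8243 ± 1939 in HT vehicle females, 8783 ± 2362 in WT vehicle females and 8897 ± 2131 in HT fluoxetine males. The highest means were 9422 ± 3221 in HT lithium females, 10256 ± 1927 in WT lithium males, 10522 ± 4267 in WT lithium females and 10743 ± 2818 in HT lithium males. Only the lowest neighbours in this order, the vehicle males of the 2 genotypes, differed by more than the larger of their SDs. The order places both fluoxetine female groups below, and both lithium female groups above, the vehicle females, with overlapping values.

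**Figure D1:**
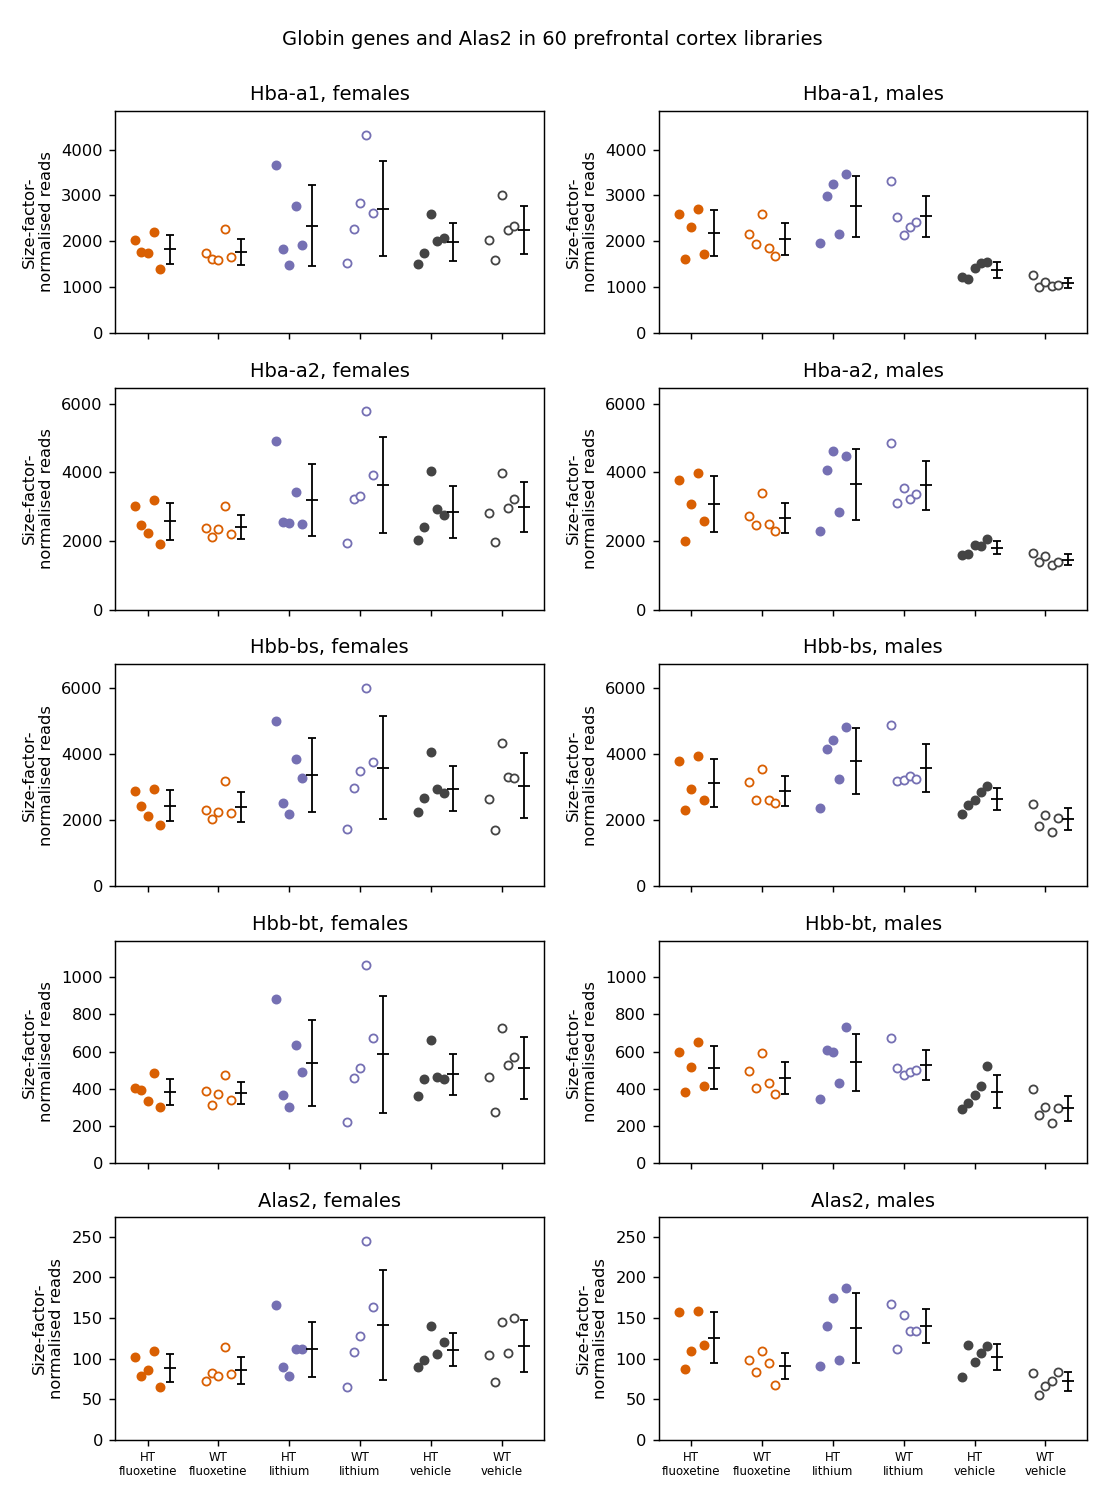
Size-factor-normalised reads of the 5 genes in each library (points) by genotype and treatment, females on the left and males on the right, with the group mean and SD beside them (n = 5 per group, filled for HT and open for WT). Female groups overlap for every gene, and the 10 vehicle males are the lowest males for Hba-a1, with 1617 to 3461 in the 20 treated males and 1002 to 1542 in the vehicle males.

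In females no difference between treatments passed the test for any of the 5 genes. Hba-a2 had 1920, 2244, 2471, 3020 and 3195 normalised reads in HT fluoxetine females, against 2041, 2398, 2761, 2932 and 4034 in HT vehicle females. In WT females it had 2115, 2196, 2352, 2371 and 3022 under fluoxetine, against 1970, 2814, 2966, 3214 and 3965 under vehicle. Values overlapped in both genotypes, and 4 of the 5 WT fluoxetine libraries lay between the lowest and the next lowest WT vehicle library. Under lithium Hba-a2 had 2485, 2538, 2565, 3416 and 4920 in HT females and 1951, 3216, 3314, 3932 and 5773 in WT females. The lithium groups held the highest female values of this gene and were the widest.

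Hbb-bs, the major beta gene, showed the same layout. It had 1863, 2112, 2427, 2880 and 2926 normalised reads in HT fluoxetine females, 2197, 2504, 3261, 3844 and 5000 in HT lithium females, and 2252, 2673, 2813, 2931 and 4072 in HT vehicle females. In WT females it had 2044, 2223, 2251, 2304 and 3173 under fluoxetine, 1735, 2970, 3471, 3754 and 5992 under lithium, and 1693, 2643, 3264, 3297 and 4329 under vehicle. A single WT lithium female (replicate 1) accounted for the lowest value under lithium and another (replicate 4) for the highest female value of all. Alas2 had 71.9, 78.6, 80.4, 81.6 and 115 in WT fluoxetine females, 64.4, 108, 127, 164 and 245 in WT lithium females, and 71.4, 105, 106, 144 and 150 in WT vehicle females. It was likewise spread most widely under lithium.

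In WT females, fluoxetine minus vehicle lay between -0.40 (Alas2) and -0.28 (Hba-a2) on the log2(value + 1) scale, with SE from 0.20 to 0.26, and no member passed the limma test (smallest adjusted p = 0.159; unadjusted p below 0.05 in 0 of 5). In the same contrast 39.8% of all genes were called, against 0 of 5 members. In HT females the differences lay between -0.34 (Alas2) and -0.11 (Hba-a1), and the smallest adjusted p was 0.351. There limma called 0.0% of all genes, with 4063 at an unadjusted p below 0.05, while edgeR called 0 genes and DESeq2 called 388, none of them members. The 95% intervals reached from -0.91 to 0.16 over the members in WT females and from -0.83 to 0.30 in HT females.

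Lithium minus vehicle lay between 0.09 (Hbb-bt) and 0.23 (Hba-a2) in WT females, where 0.00562% of all genes were called, and between -0.02 (Alas2) and 0.19 (Hba-a1) in HT females, where 0.0169% were called. No member passed in either genotype (smallest limma adjusted p = 0.597 in WT and 0.688 in HT females; unadjusted p below 0.05 in 0 of 5 in both). With library quality weights, which give less weight to libraries far from their group, Hba-a1, Hba-a2 and Hbb-bs were called higher in WT females (0.59, 0.61 and 0.65). The share of all genes called with these weights is not given here. Without WT lithium replicate 4, the library with the highest globin sum of all, the difference was -0.02 for Alas2, -0.02 for Hbb-bs and -0.17 for Hbb-bt.

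The largest female differences were between the drugs. In WT females, fluoxetine minus lithium was -0.54 for Hba-a1, -0.52 for Hba-a2, -0.49 for Hbb-bs, -0.47 for Hbb-bt and -0.61 for Alas2. Adjusted p was 0.0984 to 0.238 in limma, with 4 of 5 members at an unadjusted p below 0.05, and 3.43% of all genes were called. EdgeR called 831 genes and no member, and DESeq2 called 1172 genes, among them Hba-a1 and Alas2 (-0.61 and -0.73). All 5 were called with library quality weights (-0.95 to -0.80), for which the share of all genes called is not given here. In HT females the members lay between -0.42 (Hbb-bs) and -0.28 (Hba-a2), with a smallest adjusted p of 0.509 and no unadjusted p below 0.05, where 0.478% of all genes were called. All 5 members were thus below 0 in both genotypes without passing the test. As the members moved together from library to library, their common sign is not independent support. The contrasts share libraries with each other and are given side by side.

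Markers of other tissue differed in these female contrasts, and their part in the members' differences was not tested beyond the covariates given here. Olfactory bulb markers summed to between 243.6 and 2058 normalised reads in WT fluoxetine females, against 6287 to 22899 in WT vehicle females, and all 7 of 7 were called lower, as were 8 of 10 meninges markers (median -0.57). With the bulb list as a covariate the members' differences in that contrast were -0.58 to -0.42 and none was called. The endothelium sum, which stands for vessel wall, lay between 7643 and 8343 in WT fluoxetine females, against 8451 and 8972 in WT vehicle females, and 4 of 10 markers were called lower, where 39.8% of all genes were called in either direction. With an endothelium covariate the members' differences were -0.37 to -0.22. Between the drugs in WT females, bulb markers summed to between 243.6 and 2058 under fluoxetine, against 1268 and 15813 under lithium. In that contrast 6 of 7 bulb markers, 2 of 6 choroid plexus markers and 0 of 10 meninges markers were called lower, where 3.43% of all genes were called. With the bulb covariate the members' differences there were -0.65 to -0.58 and none was called.

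In males the alpha genes were higher under both drugs in both genotypes, relative to the vehicle males. Hba-a1 had 1617, 1722, 2303, 2589 and 2704 normalised reads in HT fluoxetine males and 1957, 2160, 2979, 3242 and 3461 in HT lithium males, against 1170, 1231, 1415, 1520 and 1542 in HT vehicle males. In WT males it had 1687, 1859, 1941, 2159 and 2598 under fluoxetine and 2149, 2310, 2419, 2534 and 3304 under lithium, against 1002, 1038, 1050, 1111 and 1271 under vehicle. No treated male reached down to the vehicle males of its genotype, and the share of all genes with such separate groups is not given here. Hba-a2 had 1996, 2585, 3080, 3768 and 3977 in HT fluoxetine males and 2282, 2849, 4054, 4463 and 4623 in HT lithium males, against 1603, 1624, 1842, 1878 and 2070 in HT vehicle males. In WT males Hba-a2 had 2295, 2469, 2485, 2714 and 3403 under fluoxetine and 3101, 3216, 3373, 3539 and 4853 under lithium, against 1291, 1383, 1394, 1573 and 1655 under vehicle. Only in HT fluoxetine males did 1 library fall into the vehicle range of this gene.

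The beta genes and Alas2 were less far apart. Hbb-bs had 2310, 2612, 2942, 3777 and 3940 in HT fluoxetine males and 2358, 3229, 4136, 4412 and 4802 in HT lithium males, against 2198, 2465, 2619, 2858 and 3037 in HT vehicle males, and these groups overlapped. In WT males Hbb-bs had 2510, 2594, 2599, 3138 and 3550 under fluoxetine and 3171, 3208, 3246, 3338 and 4871 under lithium, against 1654, 1813, 2057, 2162 and 2478 under vehicle. Here neither drug group overlapped the vehicle group, while the drug groups overlapped each other. In these WT contrasts with vehicle, 58.0% (fluoxetine) and 48.2% (lithium) of all genes were called. Alas2 had 67.5, 83.3, 94.5, 98.7 and 109 in WT fluoxetine males and 112, 134, 134, 153 and 167 in WT lithium males, against 54.4, 66.3, 72.2, 82.5 and 83.5 in WT vehicle males. Lithium males of this genotype lay above both other groups for Alas2. For neither Hbb-bs nor Alas2 is the share of all genes with separate groups given here.

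Lithium minus vehicle in WT males was 1.20 for Hba-a1, 1.30 for Hba-a2, 0.80 for Hbb-bs, 0.86 for Hbb-bt and 0.96 for Alas2 (SE 0.20 to 0.26; limma adjusted p from 1.261e-06 to 0.00526). All 5 were called higher, where 24.5% of all genes were called higher. In HT males the alpha genes were called higher (0.98 and 0.97, adjusted p = 8.567e-05 and 0.000195), where 18.5% of all genes were. Hbb-bs, Hbb-bt and Alas2 had 0.49, 0.48 and 0.38 there and were not called (adjusted p = 0.0841, 0.155 and 0.200). With libraries weighted by quality, 4 members were called in HT males, and the share of all genes called in that run is not given here.

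Fluoxetine minus vehicle in WT males was 0.89 for Hba-a1, 0.87 for Hba-a2 and 0.65 for Hbb-bt, all called higher (adjusted p = 0.000165, 0.000482 and 0.0309), where 28.7% of all genes were called higher. Hbb-bs (0.50, adjusted p = 0.0514) and Alas2 (0.33, adjusted p = 0.217) were not called. The Hbb-bt call ended when any of 4 single libraries (fluoxetine replicates 1 and 3, vehicle replicates 2 and 4) was left out, with differences of 0.54 to 0.61. It also ended with library quality weights (0.50, limma adjusted p = 0.0590) and with the meninges covariate (0.51, limma adjusted p = 0.120). In HT males Hba-a1 (0.65, adjusted p = 0.00748) and Hba-a2 (0.73, adjusted p = 0.00396) were called higher, where 20.4% of all genes were. The other 3 members lay between 0.22 and 0.42 without passing the test. Fluoxetine minus lithium in males lay between -0.63 and -0.06 in the 2 genotypes, with 0 of 5 members called in each (smallest adjusted p = 0.152; unadjusted p below 0.05 in 2 of 5 in WT males and 0 of 5 in HT males), where 0.917% of all genes were called in WT and 0.371% in HT males. Neither edgeR (152 genes called in WT and 64 in HT males) nor DESeq2 (270 and 123) called a member in these contrasts between the drugs.

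Markers of other tissue also differed in the male contrasts. In WT fluoxetine males against vehicle, 7 of 7 bulb markers (median -3.68), 5 of 10 meninges markers (-0.44) and 3 of 6 choroid plexus markers (-0.76) were called lower, where 58.0% of all genes were called in either direction. The bulb sum lay between 218.7 and 2381 normalised reads in WT fluoxetine males, against 5456 and 23729 in WT vehicle males. With the bulb list as a covariate the alpha genes were still called higher in that contrast (0.82 and 0.76), and Hbb-bt was not (0.50, limma adjusted p = 0.18). In the other 3 contrasts of treated with vehicle males no bulb marker was called, and with the covariate the same number of members was called as without it.

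Of the 8 mural cell markers, 6 were called higher and 1 lower in HT lithium males against vehicle (median 0.39, where 36.9% of all genes were called), and 3 higher and 1 lower in WT lithium males (median 0.25, where 48.2% were called). Their sum lay between 7898 and 10407 in HT lithium males, against 7716 and 10043 in HT vehicle males, and between 7099 and 9280 in WT lithium males, against 7974 and 9326 in WT vehicle males. In each of these contrasts 2 of 10 endothelium markers were called higher. The endothelium sum lay between 7394 and 11107 in treated males, against 7458 and 9393 in vehicle males. The part of the mural cell markers in the members' differences was not tested.

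**Figure D2:**
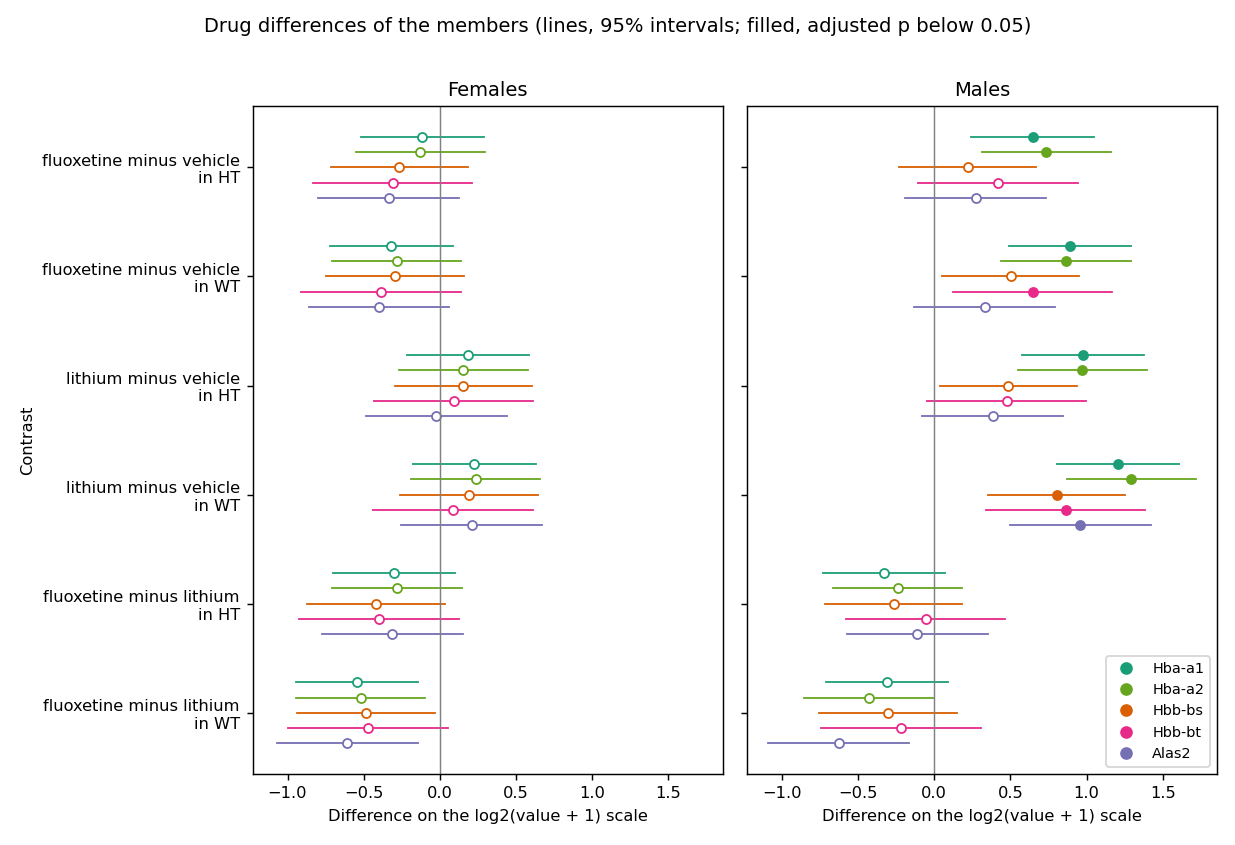
Differences between treatments for the 5 genes on the log2(value + 1) scale (points, with 95% intervals from limma), by genotype, in females on the left and males on the right, with filled points where the adjusted p was below 0.05. No female point is filled, while the alpha genes are filled in all 4 contrasts of treated with vehicle males.

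The male groups also differed in a trend of all genes on GC content and length together, which were not separated. Alpha transcripts have 57.2% (Hba-a1) and 56.9% (Hba-a2) G and C, and beta transcripts 51.3% (Hbb-bs) and 50.8% (Hbb-bt). Each library's smooth trend of all genes on GC content and length, read at the members, averaged 0.07 log2 at Hba-a1 and 0.04 at Hbb-bs in the 20 treated males, against -0.19 and -0.04 in the 10 vehicle males. At Alas2, with 53.3% G and C in 2037 bases, it averaged 0.04 in the treated males, against -0.11 in the vehicle males. When that trend was removed, the alpha genes in HT fluoxetine males fell short of the threshold (0.38 and 0.47, adjusted p = 0.162 and 0.0874), as did Hbb-bt in WT fluoxetine males (0.57, adjusted p = 0.0556). The 5 calls for lithium in WT males held without the trend, at 0.75 to 1.08.

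The drug differences of the alpha genes themselves differed between the sexes. The female minus male difference of fluoxetine minus vehicle was -1.21 for Hba-a1, -1.15 for Hba-a2 and -1.03 for Hbb-bt in WT mice, all called lower, where 13.5% of all genes were called lower. In HT mice it was -0.76 for Hba-a1 and -0.86 for Hba-a2, where 11.4% were. For lithium it was -0.98 and -1.06 in WT mice (13.5% of all genes lower) and -0.79 and -0.82 in HT mice (12.6% lower) for the 2 alpha genes. With the GC and length trend removed, 1 of these 9 calls was left, Hba-a1 under fluoxetine in WT mice. In HT mice the number called fell to 0 or 1 without any of 12 of the 20 libraries for fluoxetine and without any of 10 of the 20 for lithium. As the vehicle males differed from the treated males in many genes, a sex difference in drug response and a difference of those 10 libraries cannot be told apart.

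Genotype made no difference that passed the test. HT minus WT lay between -0.17 and -0.01 under vehicle, 0.02 and 0.08 under fluoxetine, and -0.26 and -0.04 under lithium in females. In males it lay between 0.30 and 0.51 under vehicle, 0.08 and 0.45 under fluoxetine, and -0.07 and 0.10 under lithium. In all 6 contrasts 0 of 5 members were called by limma (smallest adjusted p = 0.193), by edgeR or by DESeq2, and limma called 0.0% of all genes, with 324 to 4151 genes at an unadjusted p below 0.05. An unadjusted p below 0.05 was reached by 1 of 5 members in vehicle males and by none in the other 5 contrasts. Nor did limma, edgeR or DESeq2 call a member in the 4 interactions of genotype with a drug or in the 3 of genotype with sex (smallest limma adjusted p = 0.615; unadjusted p below 0.05 in 0 of 5 in each). In each of these interactions limma called 0.0% of all genes and edgeR 0 genes, while DESeq2 called 0 to 7 genes.

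Alpha and beta chains moved together from library to library. Around the 12 group means, the 4 alpha-beta pairs had Pearson's r of 0.93 to 0.96 and Spearman's rho of 0.92 to 0.94 over 60 libraries, as high as the alpha pair (r = 0.95) and close to the beta pair (r = 0.97). Alas2 had r of 0.87 to 0.91 with the 4 globin genes (rho 0.81 to 0.86). All 10 pairs reached p = 1e-05 in a two-sided permutation test of r and of rho that shuffled libraries within groups, the smallest that 100000 permutations can give, and their values adjusted over the 10 pairs were also 1e-05. Without the 2 libraries farthest from the median the pairs kept r of 0.84 to 0.97. The points of a pair share their library and its size factor.

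The relation held in each sex. In the 30 females r was 0.95 to 0.96 for the alpha-beta pairs and 0.92 to 0.95 for Alas2 with the globins, and in the 30 males 0.90 to 0.95 and 0.77 to 0.83. Among the 10 vehicle males alpha and beta genes still moved together (r = 0.84 to 0.92, largest adjusted permutation p = 0.00662), but Alas2 did not track the globins at a level that passed the test (r = 0.34 to 0.60, permutation p up to 0.362). Those 10 libraries spanned a 1.71-fold range of the globin sum, against 3.16-fold in the other 50.

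Within groups the alpha sum had a pooled SD of 0.33 log2 and the beta sum 0.37 log2, but their ratio only 0.10 log2 (60 libraries, 12 groups). In females these were 0.38, 0.44 and 0.12. Most of the library-to-library variation was thus shared by the chains, and the ratio varied little while the total varied several-fold. Within the alpha pair, Hba-a2 had 1.36 ± 0.10 times the reads of Hba-a1, and within the beta pair Hbb-bt held 13.4% ± 0.99 of the reads (SD, n = 60). Alas2 had 12.7 ± 1.28 normalised reads per 1000 globin reads in females, 13.0 ± 1.69 in treated males and 15.7 ± 2.49 in vehicle males (SD, n = 30, 20 and 10).

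**Figure D3:**
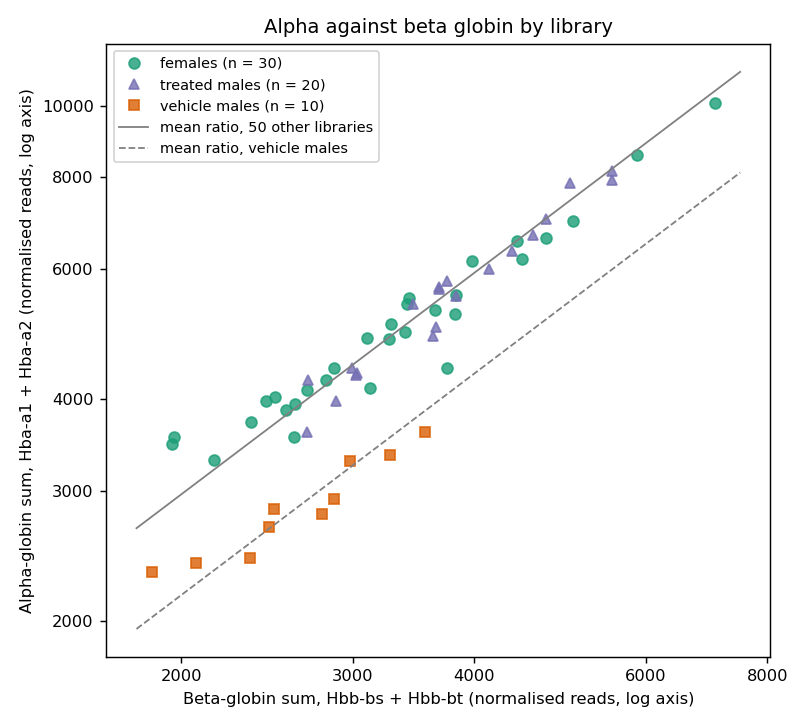
Sum of the alpha genes against the sum of the beta genes in each library (normalised reads, log axes), with lines at the mean alpha to beta ratio of the 50 other libraries and of the 10 vehicle males. The 50 other libraries lie along the line at 1.48 over a 3.16-fold range of the globin sum, and the vehicle males along the line at 1.08.

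The exception was the level of the ratio in vehicle males. Alpha over beta reads averaged 1.46 ± 0.07 in the 20 treated males, against 1.08 ± 0.08 in the 10 vehicle males, and 1.498 ± 0.13 in the 30 females (SD). In the 20 treated males it ranged from 1.34 to 1.57, against 1.002 to 1.25 in the vehicle males, with no overlap. Of the 50 other libraries 49 lay above the highest vehicle male, and the remaining one, an HT lithium female, had 1.18. By genotype the vehicle males averaged 1.06 ± 0.06 in HT and 1.11 ± 0.09 in WT (n = 5 each).

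Among females the ratio averaged 1.56 ± 0.05 under fluoxetine, 1.43 ± 0.17 under lithium and 1.40 ± 0.06 under vehicle in HT females, and 1.51 ± 0.05, 1.57 ± 0.13 and 1.51 ± 0.18 in WT females (SD, n = 5 each). In HT females every fluoxetine library (1.506 to 1.627) lay above every vehicle library (1.326 to 1.48), also after removal of the GC and length trend (1.461 to 1.56 under fluoxetine, against 1.30 to 1.448 under vehicle). The lithium libraries of HT females (1.177 to 1.612) overlapped both, and in WT females all 3 treatments overlapped. As a ratio of reads within a library it does not depend on the size factor. It is given as a description, with no test.

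Removing the GC and length trend narrowed the gap without closing it. The ratio then averaged 1.44 ± 0.07 in treated males (1.31 to 1.56), against 1.20 ± 0.09 in vehicle males (1.11 to 1.40). Treated over vehicle males it was 1.35-fold before and 1.20-fold after the removal, and 34 of the 50 other libraries then lay above the highest vehicle male. In means of normalised reads, treated males had 1.93 times the Hba-a1, 1.996 times the Hba-a2, 1.43 times the Hbb-bs, 1.51 times the Hbb-bt and 1.42 times the Alas2 of vehicle males. The alpha and beta chains thus did not differ in step between these libraries, unlike within groups.

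**Figure D4:**
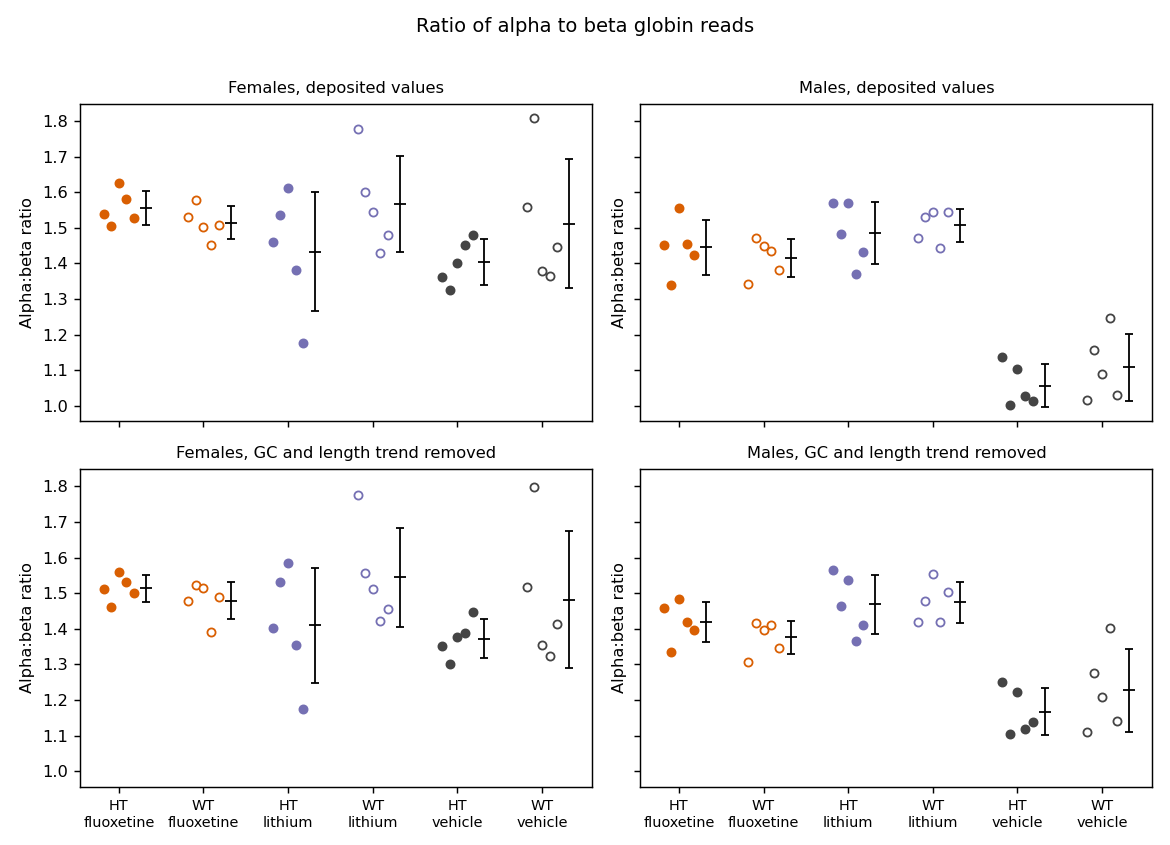
Ratio of alpha to beta globin reads in each library (points, with group mean and SD, n = 5), from the deposited values above and after removal of each library's GC and length trend below, females on the left and males on the right. Vehicle males sit between 1.002 and 1.25 above and between 1.11 and 1.40 below.

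Of 31 other red cell genes listed, 11 were in the table and tested, and several of these, such as Sptb (beta spectrin), Ank1 (ankyrin 1) and Tfrc (transferrin receptor), are also made by brain cells. The other 20 were not analysed here. Slc4a1, the red cell anion exchanger band 3, averaged 6.39 normalised reads (0 to 29.7) and had the highest r of the list with the mean of the 5 members around group means, 0.49 over 60 libraries. It was not called in any contrast of treatments (fluoxetine minus lithium in WT females -1.43, SE 0.55, adjusted p = 0.112). The list's median r was 0.14, against -0.01 over 17776 genes. Its most abundant gene, Sptb, averaged 4312 and had r of 0.20.

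In WT females given fluoxetine, 3 of the 11 other red cell genes were called higher and 2 lower against vehicle, where 39.8% of all genes were called in either direction, with a median of -0.15 against 0.01 over all genes. Slc25a37, the mitochondrial iron importer mitoferrin 1, and Tfrc were higher (0.30 and 0.33), while Ank1 and Epb41, the membrane skeleton protein 4.1R, were lower (-0.30 and -0.32). In WT lithium males 2 were called higher and 1 lower, where 48.2% of all genes were called in either direction (median -0.07 against -0.01), with Sptb at 0.47, Ank1 at 0.21 and Bpgm, which makes 2,3-bisphosphoglycerate, at -0.23. Of these named genes only Sptb and Ank1 were on the members' side of 0 in the WT lithium males.

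The haem synthesis genes beyond Alas2 are used by all cells. In WT lithium males 4 of 8 were called higher, where 24.5% of all genes were, and 0 lower (median 0.16 against -0.01 over all genes), led by Urod (uroporphyrinogen decarboxylase, 0.37) and Alad (aminolevulinate dehydratase, 0.43), with Alas1, the form of other tissues, at 0.18. In WT fluoxetine females, where 39.8% of all genes were called in either direction, 2 were higher, Fech (ferrochelatase) at 0.26 and Cpox (coproporphyrinogen oxidase) at 0.30, and Ppox (protoporphyrinogen oxidase) was lower at -0.32. Fech, the most abundant, averaged 1659 normalised reads. Of the 10 tested genes of haem and haemoglobin clearance, 6 were higher and 1 lower in WT lithium males (median 0.20, against 24.5% of all genes higher), among them Lrp1, a receptor for haem-haemopexin, at 0.62, Hmox1 (haem oxygenase 1) at 0.27 and the most abundant, the ferritin gene Fth1, at 0.47. In WT fluoxetine females 2 were higher and 2 lower, with Fth1 at 0.39 and Ftl1 at -0.29.

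Markers of the vessel wall and of other tissue were set beside the members within groups. The 10 endothelium markers had a median r of -0.00044 with the members (-0.08 to 0.31), with Flt1 the most abundant at a mean of 1709 normalised reads. The medians were 0.04 for the 8 mural cell markers, -0.12 for the 10 meninges markers, -0.03 for 6 choroid plexus markers, -0.11 for the 7 olfactory bulb markers and 0.18 for the 8 cortical neuron markers. Of the blood lists, 4 of 6 platelet genes were tested (median r 0.01), 3 of 10 lymphocyte genes (median 0.17, with Ighm, the IgM heavy chain, at 0.40 and the highest mean, 337.7) and 0 of 9 neutrophil genes, which were not analysed here. Of the globins outside red cells, Ngb (neuroglobin) had r of 0.33 and Cygb (cytoglobin) -0.21.

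**Figure D5:**
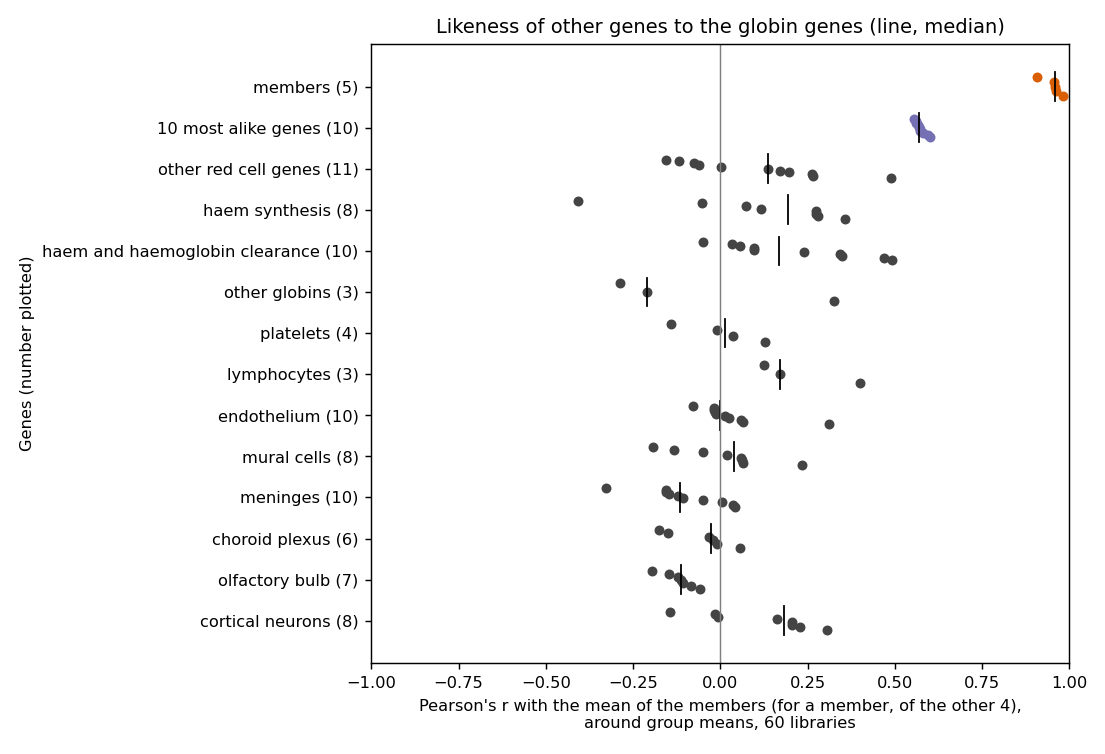
Pearson's r of single genes (points, with the list median as a line) with the mean of the 5 members (for a member, the mean of the other 4), from deviations around group means over 60 libraries. The members lie between 0.91 and 0.98, the 10 most alike other genes between 0.55 and 0.60, and the genes of the other lists below 0.5.

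Each member had r of 0.91 to 0.98 with the mean of the other 4. With the mean of all 5, the 10 next genes by r, from 0.55 to 0.60, included Ndufa2 (0.60), Clec2l (0.59), Cox5b (0.58), Nenf, Padi6, 1110065P20Rik, Ndufb9, Cox6b1 and Nop10 (0.55), and 48 of 17776 genes passed an r of 0.5. Ndufa2, Cox5b, Ndufb9 and Cox6b1 encode subunits of the respiratory chain. The longest transcripts of these 10 genes had a median of 803.5 bases (572 to 2333), against 3183 bases over all tested genes.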

How the data were processed

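RNA of 60 prefrontal cortex samples was sequenced from stranded mRNA libraries, per the labels' protocols. The deposited table holds a signal per gene, reads divided by size factors, which the authors made with Salmon 0.11.2, R 3.6.0, DESeq2 1.19.11 and GRCm38, per the submitters' processing notes. All values (100%, tolerance 1e-06) were whole reads after division by 1 factor per library (0.818 to 1.329), which gave the depths. Of 18088 identifiers, 18077 had a symbol in the annotation used here. How reads of near-identical copies were assigned is not given in the sources used here.

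The main test was limma 3.58.1 with a mean-variance trend in R 4.3.3, on log2(value + 1) of the deposited values, with 12 group means over 60 libraries and Benjamini-Hochberg adjustment over 17781 genes. A call is a two-sided adjusted p below 0.05. The pseudocount understates changes of low genes. Alternatives were edgeR 4.0.16 and DESeq2 1.42.0 on recovered reads, other pseudocounts (0.5 and 5), filters and normalization, library weights, marker covariates, the replicate number as a block, and single libraries left out. Removal of GC and length trends, and a fit without vehicle males, were chosen after seeing the data.

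Correlations used Python 3.11.15, numpy 2.4.6 and scipy 1.17.1, with 100000 permutations. The fit was tested on simulated data. Replicate libraries all differed by more than sampling noise. The members and lists were chosen with earlier results of these data known. Named genes are the members, Tbr1, the 10 genes most correlated with the members' mean, and from each list up to 4 called genes by smallest p and the most abundant. Slc4a1, Ngb, Cygb and Ighm were named after their values were seen. A gene that the rule names is not reported here.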

Additional observations from a re-analysis of the deposited data

Results flagged for a closer look

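Of 60 tests for a library far from the other 4 of its group (5 genes in 12 groups), 7 stood out, and chance alone flags about 1 in 20 groups. They came from 2 libraries, so they are not independent. WT fluoxetine female replicate 4 was the highest of its group for Hba-a1 (2270 normalised reads, next 1748), Hba-a2 (3022, next 2371), Hbb-bs (3173, next 2304) and Alas2 (114.6, next 81.56). WT lithium male replicate 1 was the highest of its group for Hba-a2 (4853, next 3539), Hbb-bs (4871, next 3338) and Hbb-bt (671.9, next 510.5).

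Of 55 tests of a sex difference in an effect of genotype or of a drug, or of a genotype difference in a drug effect, 9 passed the limma threshold, each with a lower drug minus vehicle difference in females than in males. Under lithium the differences of the called genes were above 0 in both sexes (0.15 to 0.23 in females). Under fluoxetine those of the called genes were below 0 in females and above 0 in males. For fluoxetine the female minus male difference was -1.211 for Hba-a1, -1.149 for Hba-a2 and -1.031 for Hbb-bt in WT mice (adjusted p = 0.00084, 0.00258 and 0.0310), and -0.761 for Hba-a1 and -0.862 for Hba-a2 in HT mice (adjusted p = 0.0427 and 0.0284). For lithium it was -0.9785 for Hba-a1 and -1.061 for Hba-a2 in WT mice (adjusted p = 0.00679 and 0.00536), and -0.7913 and -0.8197 in HT mice (adjusted p = 0.0316 and 0.0352). All 9 rest on the 10 vehicle males, and the part of whatever sets those libraries apart was not tested.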

How the results depend on the processing

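With GC and length trends removed, the number of members called fell to 0 for fluoxetine minus vehicle in HT males, to 0 for both drugs by sex in HT mice, to 1 for fluoxetine by sex and 0 for lithium by sex in WT mice. With the endothelium covariate it was 1 for fluoxetine and 0 for lithium by sex in HT mice. With library weights it was 5 for fluoxetine by sex in HT mice, 0 for lithium by sex in WT mice, 5 for fluoxetine minus lithium in WT females and 1 in WT males, 4 for lithium minus vehicle in HT males and 3 in WT females. DESeq2 called 2 for fluoxetine minus lithium in WT females, among 1172 genes. For the runs with the trend removed, a covariate, weights or a library left out, the share of all genes called is not given here. The members' counts in those runs therefore cannot be set against it. The cause of these changes was not tested. With one library left out, the members called ranged from 0 to 2 for fluoxetine and for lithium by sex in HT mice, and from 2 to 5 for each in WT mice (5 without WT vehicle female replicate 2, for lithium also without WT lithium female replicate 4).

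Lithium minus vehicle in HT females turned sign for Alas2 with DESeq2 (0.0068), edgeR (0.0010) and quantile normalization (0.035), and for Hbb-bt with library weights (-0.057) and the meninges covariate (-0.0060). With one library left out, lithium minus vehicle ranged in HT females from -0.18 to 0.092 for Alas2, -0.017 to 0.29 for Hba-a2, -0.0048 to 0.29 for Hbb-bs and -0.12 to 0.27 for Hbb-bt, and in WT females from -0.021 to 0.46 for Alas2, -0.023 to 0.42 for Hbb-bs and -0.17 to 0.39 for Hbb-bt. Fluoxetine minus lithium in HT males ranged from -0.25 to 0.012 for Alas2 and -0.21 to 0.064 for Hbb-bt, and fluoxetine minus vehicle in HT females from -0.24 to 0.0094 for Hba-a2.

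Hbb-bs was called without WT fluoxetine male replicate 5 (0.55) or WT vehicle male replicate 1 (0.58) for fluoxetine minus vehicle in WT males, and without HT lithium male replicate 1 (0.65) for lithium minus vehicle in HT males. Replicate numbers did not pair libraries (330 same-number pairs, mean r 0.0061, 20.6% of them above 0.1). With the replicate block Hbb-bs was called for fluoxetine minus vehicle in WT males (0.50, adjusted p = 0.0460) and for fluoxetine by sex in WT mice (-0.80, adjusted p = 0.0495), and r of member pairs was 0.88 to 0.97. All 680 alternative correlations kept their sign and call (0.77 to 0.98). No genotype value was called under any alternative run. Alas2 had the fewest reads of the members (54.4 to 245 normalised reads), so its values carry the larger counting error.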
